A study of Homo sapiens with 6 samples.

Results

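The genes described here are 10 genes expressed in vascular endothelium, some of them, PODXL and ENG included, in other cells as well: CDH5 (Entrez gene ID 1003, VE-cadherin), PECAM1 (5175), TEK (7010), TIE1 (7075), KDR (3791), FLT1 (2321), VWF (7450), ENG (2022), PODXL (5420) and ERG (2078). They are a list of symbols drawn up with earlier results of these data known, the rise of PODXL included, so their count of calls is a description. They were found by Entrez gene ID among the 27259 genes listed in the deposited tables. All 10 had a line in at least 1 library, and 7 passed the filter on low counts that left 16092 genes for testing. RNA-seq had been run on U87MG, an established human glioblastoma cell line, in 2 groups of 3 libraries. U87MG-control cells had received a control lentivirus and U87MG-LMO2 cells a lentivirus that carried LMO2, both for 24 h, so that viral infection was common to both groups. Per the study's methods, LMO2 stood behind a viral CMV promoter in a vector with puromycin resistance, so its level was set by the vector and not by the gene's own control regions. The labels named no batch. They did not say whether replicates came from separate cultures, and the p-values then measure only the spread between these samples, which may be technical. Depth was 11428432 to 13537284 expected counts in U87MG-control and 14630627 to 17892955 in U87MG-LMO2, with no overlap in depth between the groups.

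Endothelial cells line blood vessels and are held together by VE-cadherin and PECAM1. They sense growth factors through the VEGF receptors KDR and FLT1 and through the angiopoietin receptor TEK with its relative TIE1. LMO2 is an adaptor with LIM domains that binds no DNA itself. In endothelium and blood progenitors it joins LDB1 to DNA-binding partners such as TAL1, LYL1 and GATA2, and complexes of this kind are known for sites that combine an E-box (CANNTG) with a GATA motif. ERG and FLI1 are ETS factors, which bind a GGAA core, and they act widely at endothelial genes. The question asked here was which of the 10 genes were switched on in U87MG-LMO2.

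The introduced gene was measured first, as a check of the labels. LMO2 (4005) had 7, 11 and 5 expected counts in U87MG-control replicates 1 to 3 and 5459, 4503 and 14570 in U87MG-LMO2 replicates 1 to 3. Its log2 fold change was 9.70 (edgeR quasi-likelihood test, Benjamini-Hochberg adjusted p = 0.000413). Replicate 3 of U87MG-LMO2 held the most LMO2 RNA, at 877.9 CPM (counts scaled by TMM-adjusted library sizes) against 333.0 and 307.0 in the others. The label of the cell line was set against glial and glioma markers: VIM, CD44 and EGFR had mean FPKM values of 5266, 508.2 and 58.2 over all 6 libraries, while SOX2 had 0 to 4 and S100B 0 to 1 counts per library. Of 10 such markers 6 were tested and 0 were called by edgeR, 0 at an unadjusted p under 0.05 and 0 by DESeq2. Over all tested genes, edgeR called 7.48%, and 25.7% had an unadjusted p under 0.05.

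None of the 10 genes went from at most 3 counts in the controls to more than 3 in U87MG-LMO2. CDH5 and ERG were the only 2 of the 10 with at most 3 counts in every control library, and 0 of them passed 3 counts in any U87MG-LMO2 library. Among all 7770 listed genes with at most 3 counts in every control, 15.7% passed 3 counts in at least 1 U87MG-LMO2 library and 1.85% in all 3. PODXL and ENG rose in U87MG-LMO2, by 4.15-fold and 1.65-fold, and both were already expressed in the controls. Thus 2 of the 10 genes, of which 7 were tested, were called higher and 0 lower, beside 4.72% of all tested genes called higher, 2.75% called lower and 7.48% called in either direction. At an unadjusted p under 0.05 the same 2 genes were higher and 0 lower, beside 25.7% of all tested genes in either direction, and DESeq2 also called 2 higher and 0 lower. Groups did not overlap in CPM for 2 of the 7 tested genes, again PODXL and ENG, beside 34.1% of all tested genes. The median log2 fold change of the 7 tested genes was -0.01, beside -0.01 for all 16092 tested genes.

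Stretches just upstream of 3 of the genes were taken from RefSeq promoter windows (GRCh38.p14) and are shown 5' to 3' in the gene's sense. They show what letters lie before ENG, which rose and had a window at hand, and before 2 receptor genes. Of these KDR was tested and not called, and TIE1 failed the filter on low counts. TEK and ERG, which have GATA in their windows, are counted below and not printed. Capitals mark CANNTG and either strand of GGAA (GGAA or TTCC), and none of the 3 holds GATA or its reverse TATC.
TIE1, chr1:43300732-43300981, plus strand: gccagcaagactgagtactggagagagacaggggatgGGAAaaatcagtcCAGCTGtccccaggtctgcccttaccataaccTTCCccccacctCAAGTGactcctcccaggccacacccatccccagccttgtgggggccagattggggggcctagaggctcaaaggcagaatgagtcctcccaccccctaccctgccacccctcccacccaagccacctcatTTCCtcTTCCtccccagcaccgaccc
KDR, chr4:55125596-55125845, minus strand: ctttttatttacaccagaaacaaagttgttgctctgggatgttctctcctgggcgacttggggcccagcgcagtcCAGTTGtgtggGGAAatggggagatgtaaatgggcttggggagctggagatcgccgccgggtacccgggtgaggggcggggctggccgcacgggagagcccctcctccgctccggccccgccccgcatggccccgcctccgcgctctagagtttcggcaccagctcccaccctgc
ENG, chr9:127854757-127854908, minus strand: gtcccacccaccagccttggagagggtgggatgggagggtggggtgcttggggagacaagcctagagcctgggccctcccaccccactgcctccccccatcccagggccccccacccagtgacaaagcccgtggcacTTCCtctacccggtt
The ENG stretch is 152 bases, since bases inside the annotated gene were trimmed from its window. Over all 250 bases upstream of its RefSeq start, ENG had 0 GATA, 0 CANNTG and 3 GGAA matches on both strands together. KDR had 1 CANNTG and 1 GGAA match, TIE1 had 2 and 4, and FLT1 had 0 CANNTG and 4 GGAA matches, all without GATA. The 2 windows of TEK had 1 and 4 GATA matches, and the second also held a CANNTG with GATA at a distance of 6 to 12 bases, the spacing searched for. The 4 windows of ERG had 3, 3, 1 and 0 GATA matches. Among 35116 RefSeq windows of this length, 45.6% held GATA, 61.8% CANNTG, 92.7% GGAA and 2.27% the spaced pair, so matches of the single motifs were common everywhere. CDH5, PECAM1, VWF and PODXL had no window in the table used. A match describes letters, not a bound site.

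The cell junction genes came first, with VE-cadherin at the edge of detection. CDH5 (chr16:66366622-66404786, plus strand; gene positions are from GENCODE v29 on GRCh38) had 0, 1 and 0 counts in U87MG-control and 1, 1 and 0 in U87MG-LMO2. Summed over each group this was 0.026 CPM (95% exact Poisson interval 0.000659 to 0.145) in U87MG-control and 0.042 CPM (0.00508 to 0.152) in U87MG-LMO2. Both groups lay under the floor of 3 counts that a count of 0 allows, 0.181 to 0.26 CPM per library, so no fold was given, and a CDH5 response below that level was not detectable at this depth. The intervals and floors cover counting error alone, because sequenced reads can be copies of 1 molecule and the libraries carried no stated molecular identifiers. PECAM1 (chr17:64319415-64413776, minus strand), an adhesion molecule of endothelium, platelets and leukocytes, was expressed at a low level: 4.42, 5.48 and 5.15 CPM in U87MG-control and 4.94, 4.02 and 4.28 CPM in U87MG-LMO2. The groups overlapped, and the log2 fold change of -0.19 ± 0.18 (SE, n = 3 against 3) did not pass the test (edgeR adjusted p = 0.555). Its fold change of 0.879 had a 95% interval of 0.661 to 1.17.

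Receptors of the VEGF family showed no change past the threshold. KDR (chr4:55078259-55125595, minus strand), the main signalling receptor for VEGFA, was at 5.03, 4.38 and 4.16 CPM in U87MG-control and at 4.70, 6.2 and 3.68 CPM in U87MG-LMO2. U87MG-LMO2 held both the highest and the lowest of the 6 values, with a log2 fold change of 0.10 ± 0.23 (SE; edgeR adjusted p = 0.811). The 95% interval of the fold ran from 0.751 to 1.53. FLT1 (chr13:28300344-28495145, minus strand), which binds VEGFA and the placental growth factor, was at 8.42, 8.76 and 7.72 CPM in U87MG-control and at 7.14, 8.25 and 6.87 CPM in U87MG-LMO2. These groups overlapped as well, and the fold of 0.893 (95% interval 0.703 to 1.13) had an edgeR adjusted p of 0.534.

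FLT1 was peculiar in its deposited transcript length. Each library table gives, per gene, a transcript length that need not be whole and that can differ between libraries. For FLT1 this was 2968 bases in 4 libraries and at most 3021.57 in all 6, under the 4014 coding bases of the full-length receptor in every library. One annotated FLT1 transcript, NM_001160030.1, has 2969 bases and 2199 coding bases, whereas the full-length form NM_002019.4 has 7092 bases, and the FLT1 lines of the tables name both. Shortened FLT1 transcripts are known to encode a secreted receptor without the kinase, and the tables hold no value per transcript, so which form was read was not tested. TIE1 was the only other gene with a length under its longest coding sequence, at 2765 bases in 4 of the 5 libraries with a line and 3407.9 bases in the other one, against 3414 coding bases. In the remaining 8 genes the deposited length was at or over the coding length in every library with a line, and KDR, for example, stood at 6055 bases.

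**Figure D1:**
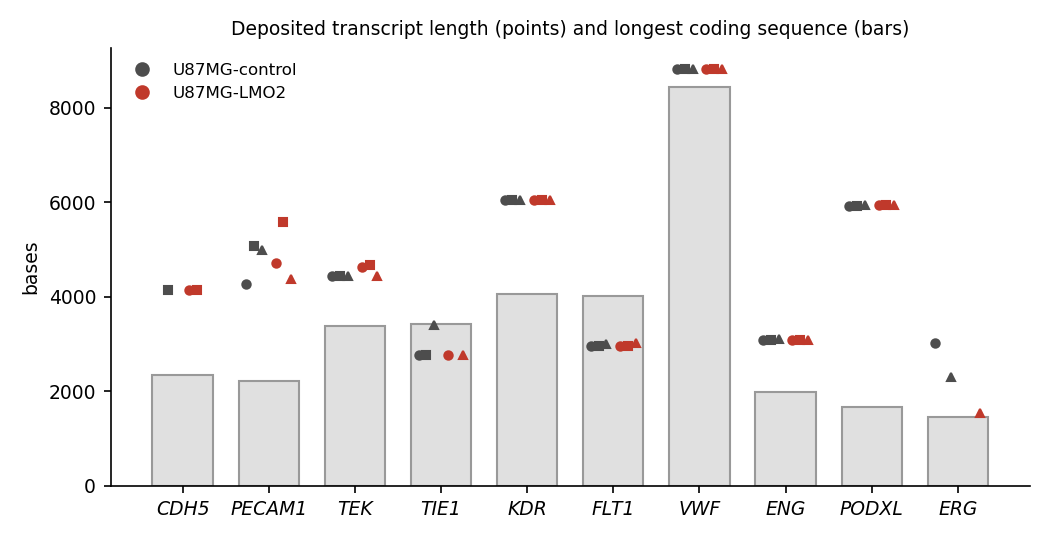
Deposited transcript length (points, bases) of the 10 genes in each library with a line (circles, squares and triangles: replicates 1, 2 and 3; grey: U87MG-control, red: U87MG-LMO2), with the longest coding sequence of each gene in GENCODE v29 as bars. FLT1 lies under its coding length of 4014 bases in all 6 libraries and TIE1 under 3414 bases in all 5 libraries with a line.

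Among the angiopoietin receptors, TEK (chr9:27109141-27230175, plus strand), the kinase receptor of the angiopoietins, had 17, 16 and 16 counts in U87MG-control and 22, 19 and 13 in U87MG-LMO2. Scaled for depth this was 1.47, 1.17 and 1.21 CPM against 1.34, 1.3 and 0.783 CPM. U87MG-LMO2 replicates 1 and 2 lay within the control range and replicate 3 below it, and the fold of 0.889 (95% interval 0.55 to 1.44) did not pass the test (edgeR adjusted p = 0.759). TIE1 (chr1:43300993-43323108, plus strand), an orphan receptor that pairs with TEK, had 3, 3 and 7 counts in U87MG-control and 1, 0 and 2 in U87MG-LMO2. Every U87MG-LMO2 library lay below every control library, in CPM as in counts. This pattern of non-overlap was seen in 16.6% of the tested genes, of which TIE1 was not one. The ratio of the summed CPM, from 13 and 3 counts, was 0.186 (95% counting interval 0.034 to 0.677). It covers counting error alone, not the spread between libraries. Every library but U87MG-control replicate 3 was at or under 3 counts, so the ratio is a description. TIE1 failed the filter, and in a fit without any filter its edgeR adjusted p was 0.174.

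VWF and ERG complete the genes that were not called higher. VWF (chr12:5948874-6124770, minus strand) encodes von Willebrand factor, which endothelium stores and releases for platelet adhesion. It was at 1.3, 0.803 and 0.757 CPM in U87MG-control and at 0.427, 0.409 and 1.93 CPM in U87MG-LMO2. Replicate 3 of U87MG-LMO2 was the highest of all 6 libraries and the other two were the lowest. The log2 fold change was -0.01 ± 0.61 (SE; edgeR adjusted p = 0.991), and the 95% interval of the fold ran from 0.378 to 2.6. Without U87MG-LMO2 replicate 3 the log2 fold change was -1.15 (edgeR adjusted p = 0.119, over alternatives 0.119 to 0.995). ERG (chr21:38380027-38661780, minus strand) had 2, 0 and 3 counts in U87MG-control and 0, 0 and 2 in U87MG-LMO2. That gave 0.13 CPM (95% exact Poisson interval 0.0422 to 0.304) and 0.042 CPM (0.00508 to 0.152), at or under the floor in every library, so no fold was given.

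PODXL and ENG were the genes called higher. PODXL (chr7:131500262-131558217, minus strand) encodes podocalyxin, a sialomucin of endothelium, blood progenitors, podocytes and some epithelia and tumours. It was at 24.7, 81.7 and 76.4 CPM in U87MG-control and at 349.1, 250.3 and 161.1 CPM in U87MG-LMO2. All U87MG-LMO2 libraries lay above all controls, and the spread was wide in both groups, with means of 60.9 ± 31.5 and 253.5 ± 94.1 CPM (SD, n = 3 each). The log2 fold change was 2.05 ± 0.43 (SE; edgeR adjusted p = 0.0285), a fold of 4.15 with a 95% interval of 2.12 to 8.13. Within U87MG-LMO2 the replicate with the most LMO2 RNA, replicate 3, had the least PODXL, and replicate 1, with 333.0 CPM of LMO2, had the most. Between replicates 1 and 2, PODXL was higher where LMO2 was higher. A relation of PODXL to the level of LMO2 was not tested. The expected counts of PODXL were fractional in every library, as were those of PECAM1, KDR and FLT1, which a counter gives when it splits reads between features. How many reads were split was not tested.

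ENG (chr9:127815012-127854756, minus strand) encodes endoglin, a co-receptor for TGF-beta and BMP ligands in endothelium and also in mesenchymal cells. It was at 134.3, 169.3 and 154.8 CPM in U87MG-control and at 238.6, 204.1 and 314.1 CPM in U87MG-LMO2. The groups did not overlap, as was so in the higher direction for 17.5% of the tested genes, and their means were 152.8 ± 17.6 and 252.3 ± 56.3 CPM (SD, n = 3 each). The log2 fold change was 0.72 ± 0.165 (SE; edgeR adjusted p = 0.0368), a fold of 1.65 with a 95% interval of 1.27 to 2.14. In contrast to PODXL, replicate 3 had the most ENG of the U87MG-LMO2 libraries, and a relation to the level of LMO2 was not tested here either. In bulk RNA, more cells expressing a gene and more RNA per cell cannot be told apart, and this holds for ENG and PODXL alike.

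Both calls were lost when any of 4 libraries was left out. Without U87MG-control replicate 1, 2 or 3 the edgeR adjusted p of PODXL was 0.0594, 0.0699 and 0.0857, and without U87MG-LMO2 replicate 1 it was 0.0976, while over all 15 alternatives it ranged from 0.00212 to 0.0976. For ENG the adjusted p was 0.144, 0.0985 and 0.134 without control replicates 1 to 3 and 0.0994 without U87MG-LMO2 replicate 1, within a range of 0.00172 to 0.144. So edgeR called 0 of the 10 genes higher when any 1 of these 4 libraries was left out. In the same 4 fits, in the order given, 123, 123, 102 and 177 of all genes were called higher, against 760 with all 6 libraries. Leaving out a library never changed the direction of either gene, with log2 fold changes of 1.68 to 2.32 for PODXL and 0.54 to 0.86 for ENG. With a GC-content correction, added after seeing the data, ENG was at 0.48 (edgeR adjusted p = 0.0427).

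**Figure D2:**
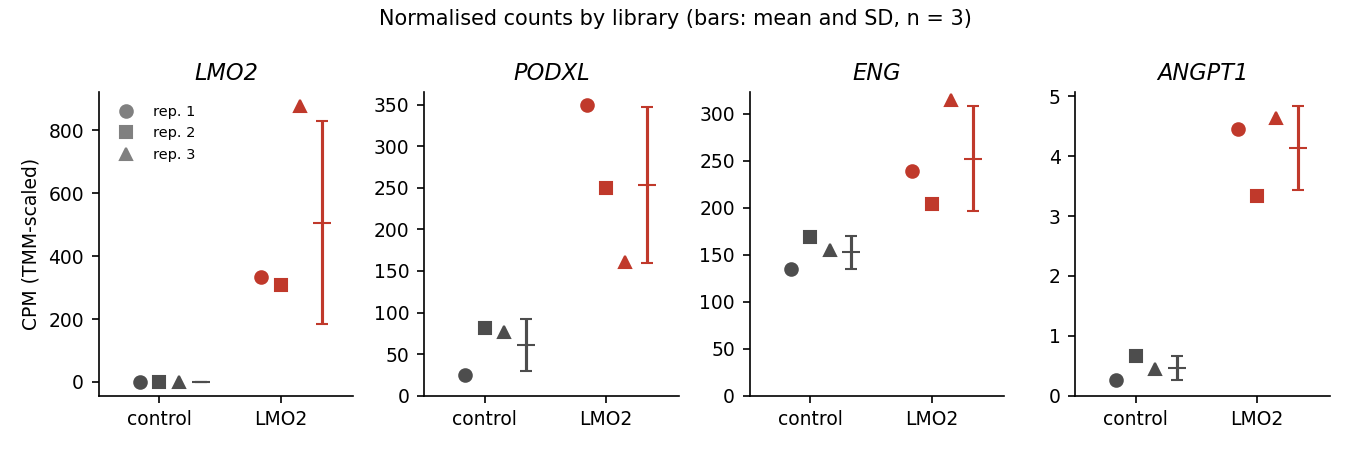
CPM (linear axes) of LMO2, PODXL, ENG and the TEK ligand ANGPT1 in each library, by group and replicate, with bars for the mean and SD of 3 libraries. All U87MG-LMO2 points lie above all control points in each panel. Of the U87MG-LMO2 replicates, PODXL is lowest where LMO2 is highest, at 161.1 and 877.9 CPM, and a relation between them was not tested.

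**Figure D3:**
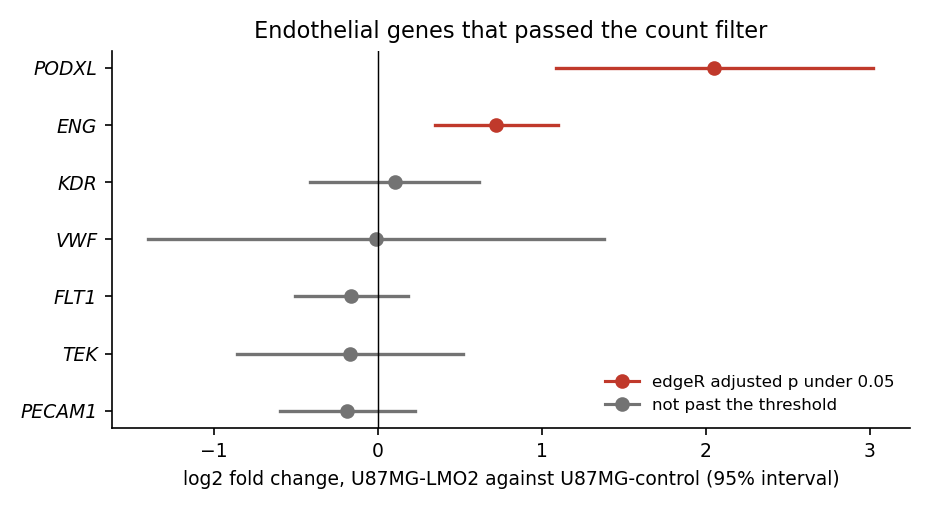
Log2 fold change of U87MG-LMO2 against U87MG-control with its 95% interval for the 7 genes that passed the count filter; red marks an edgeR adjusted p under 0.05. The intervals of PODXL and ENG lie above 0, those of KDR, FLT1, TEK, PECAM1 and VWF include 0, and VWF has the widest.

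Levels per length (FPKM) placed these genes far apart. In U87MG-control the order by mean FPKM was ENG with 49.5 ± 5.78, PODXL with 10.2 ± 5.29, FLT1 with 2.79 ± 0.184, PECAM1 with 1.05 ± 0.0265, KDR with 0.747 ± 0.0737 and TEK with 0.287 ± 0.0379 (SD, n = 3). ENG thus stood above 94.4% and TEK above 36.7% of the genes listed. Below them VWF and TIE1 both had 0.11, ERG 0.0533 and CDH5 0.00667 FPKM. Library ranges of neighbours in this order did not overlap from ENG down to TEK, and they overlapped among TIE1, VWF, ERG and CDH5. In U87MG-LMO2, ENG stayed first at 79 ± 14 FPKM and PODXL second at 41.8 ± 17.1 FPKM, and the percentage of genes below PODXL was 93.2 in place of 77.1. There the ranges of PECAM1 and KDR overlapped too, as did those of TEK and VWF. CDH5 was last in both groups.

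**Figure D4:**
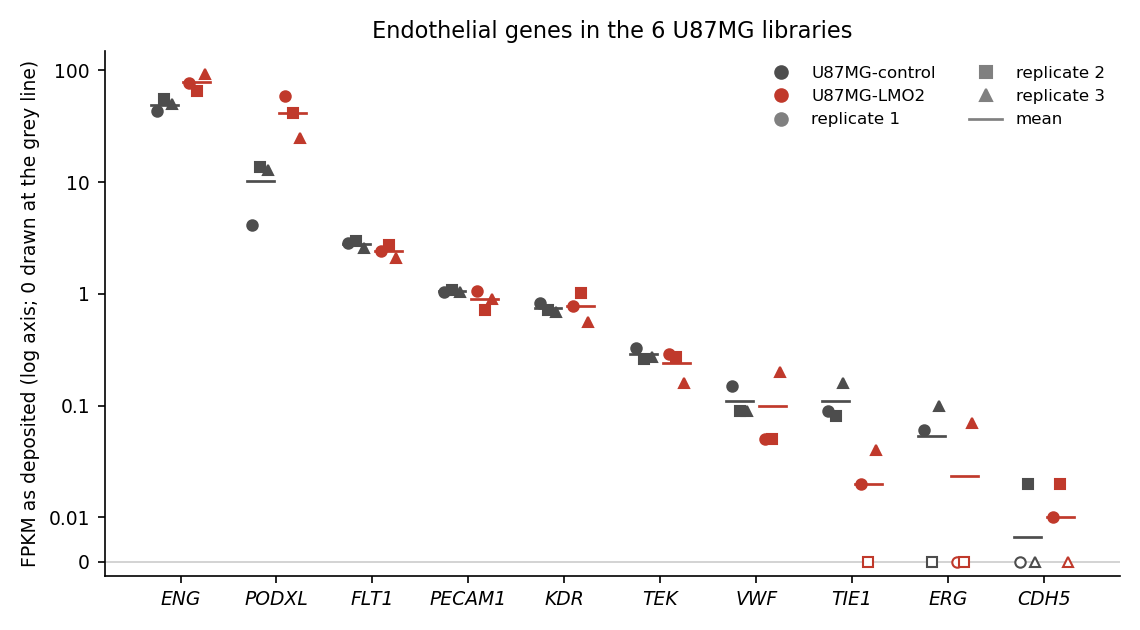
Deposited FPKM (log axis, with values of 0 drawn at the grey line) of the 10 genes in each of the 6 libraries, with short lines for group means. ENG and PODXL are highest and separate by group, and CDH5 and ERG have libraries at 0 in both groups.

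A wider set of 47 endothelial genes in 3 lists was called at a share near that of all genes. Of these, 11 had no line in the tables used here, 11 failed the filter and 25 were tested, of which 1 was called higher and 1 lower (over all tested genes, 4.72% and 2.75%), with 3 higher and 2 lower at an unadjusted p under 0.05 (25.7% of all tested genes in either direction) and a median log2 fold change of 0.00. These unadjusted counts hold genes that passed the filter through the group where they were higher, ETV2 and ROBO4, so they are a description. Among 4 wider genes with at most 3 counts in every control, 0 passed 3 counts in every U87MG-LMO2 library. LYVE1, a receptor of lymphatic endothelium named after its values were seen, passed it in 1 library with 4 counts. The gene that rose was FOXC2 (2303), a transcription factor of lymphatic vessels and mesenchyme. It was at 15.2, 18.8 and 15.7 CPM in U87MG-control and at 33.7, 29.2 and 42.2 CPM in U87MG-LMO2, 2.11-fold higher (95% interval 1.63 to 2.73, edgeR adjusted p = 0.0109). Without control replicate 1 or 3 its adjusted p was 0.0637 or 0.069, within 1.6e-06 to 0.069 over its alternatives. The gene that fell was ICAM2 (3384), an adhesion molecule of endothelium and platelets, at 2.26, 3.14 and 2.19 CPM in U87MG-control and 0.793, 1.23 and 1.33 CPM in U87MG-LMO2. Its groups did not overlap, its fold was 0.441 and its edgeR adjusted p 0.0443. That call was lost without any 1 of the 3 control libraries or U87MG-LMO2 replicates 1 and 2, with adjusted p-values of 0.0687 to 0.161, and was kept without replicate 3 (0.0249, the lowest over its alternatives).

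Within the wider set, 7 of 19 genes of the surface and matrix list were tested, with a median of -0.14. At an unadjusted p under 0.05, 0 were higher and 2 lower, beside 25.7% of all tested genes in either direction. The lower ones include ROBO4, named after its values were seen. It passed the filter on low counts through its control libraries, so this count is a description. The most abundant genes of this list were CDH13 and JAM2, with log2 fold changes of 0.12 (adjusted p = 0.678) and -0.37 (0.209) by edgeR. Of the receptors and enzymes 8 of 11 were tested. Beside 7.48% of all tested genes, edgeR called 0 of these, with 0 at an unadjusted p under 0.05 (25.7%) and 0 by DESeq2. PROCR, the endothelial protein C receptor, was the most abundant of these (log2 fold change -0.02, edgeR adjusted p = 0.923), and NOTCH4 and THBD were at -0.30 (0.323) and 0.00 (1). Of the transcription factors 10 of 17 were tested, with a median of 0.06. At an unadjusted p under 0.05, 3 were higher and 0 lower, beside 25.7% of all tested genes in either direction. The higher ones include ETV2, named after its values were seen, with 7, 13 and 8 counts in U87MG-control. It passed the filter on low counts through its U87MG-LMO2 libraries, so this count is a description. EPAS1, the hypoxia factor of endothelium, had a log2 fold change of -0.33 (edgeR adjusted p = 0.483). LYL1, a DNA-binding partner of LMO2, was abundant in both groups, at 58.2 ± 3.04 FPKM in U87MG-control and 60.2 ± 4.02 FPKM in U87MG-LMO2 (SD, n = 3 each; edgeR adjusted p = 0.634). By contrast TAL1 and FLI1 had 0 to 2 counts and GATA2 0 to 7 counts per library. TAL1, FLI1 and GATA2 were named after their values were seen.

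Ligands, co-receptors and other partners of the 10 genes were read next, 19 of 27 of them tested, of which edgeR called 2 higher and 0 lower, beside 4.72% and 2.75% of all tested genes. At an unadjusted p under 0.05, 3 were higher and 1 lower, beside 25.7% of all tested genes in either direction. DESeq2 called 2 of the partners higher and 0 lower. ANGPT1 (284), the activating ligand of TEK, had 3, 9 and 6 counts in U87MG-control and 73, 49 and 77 in U87MG-LMO2. This was 0.26, 0.657 and 0.454 CPM against 4.45, 3.34 and 4.64 CPM, an 8.76-fold difference (95% interval 5.32 to 14.9, edgeR adjusted p = 0.00324). ANGPT1 passed the filter on low counts through its U87MG-LMO2 libraries alone, so its call is a description and its fold rests on few control counts. The setting of at least 10 counts in every library left it out. Its adjusted p stayed under the threshold in all 14 alternatives that gave a value. These reuse the same libraries, so they add no support, and the count of partners called higher, which includes ANGPT1, is a description too. The receptor TEK stayed at the values given above. ETS2 (2114), an ETS factor as ERG is, was at 28.5, 31.1 and 27.8 CPM in U87MG-control and at 48.0, 52.1 and 48.4 CPM in U87MG-LMO2 (fold 1.70, edgeR adjusted p = 0.00728). Its call was lost without control replicate 3 (0.0591, the highest of 1.3e-06 to 0.0591). TGFB1, a ligand of the receptor complex that holds ENG, had the highest FPKM of the partners averaged over all 6 libraries (146.1, beside 145.3 for NRP1), with a log2 fold change of -0.18 (edgeR adjusted p = 0.406).

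Markers of other cells that could share these genes were set beside PODXL and ENG. Of 12 blood cell markers 4 had no line and 2 were tested, and edgeR called 0, with 0 by DESeq2. At an unadjusted p under 0.05, 1 was lower, beside 25.7% of all tested genes in either direction. That gene, GFI1B, passed the filter on low counts through its control libraries, where it was higher, so this is a description. The summed level of the blood cell markers was 3.99 to 4.54 CPM in U87MG-control and 3.07 to 4.84 CPM in U87MG-LMO2. The most abundant, MYB, GFI1B and PTPRC, had mean FPKM values of 0.477, 0.382 and 0.347. The blood-defining genes GATA1, KLF1 and HBB had no line and were taken as 0. Whether the annotation used for counting held them, or the 11 wider endothelial genes without a line, is not given in the sources used here. Of 11 mural cell markers 10 were tested, with 2 called higher and 1 lower by edgeR, beside 4.72% and 2.75% of all tested genes, and a median log2 fold change of 0.38. At an unadjusted p under 0.05, 4 were higher and 1 lower, beside 25.7% of all tested genes in either direction. The higher ones include NOTCH3, named after its values were seen, at 0.0868 to 0.605 CPM in U87MG-control. It passed the filter on low counts through its U87MG-LMO2 libraries alone, so this count and the median are a description. The summed level of the mural cell markers was 515.3 to 543.4 CPM in U87MG-control and 463.1 to 634.1 CPM in U87MG-LMO2. CSPG4, with means of 247.0 and 250.6 CPM, made up the largest part of these sums. What part, if any, the markers of other cells had in the rise of PODXL and ENG was not tested.

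**Figure D5:**
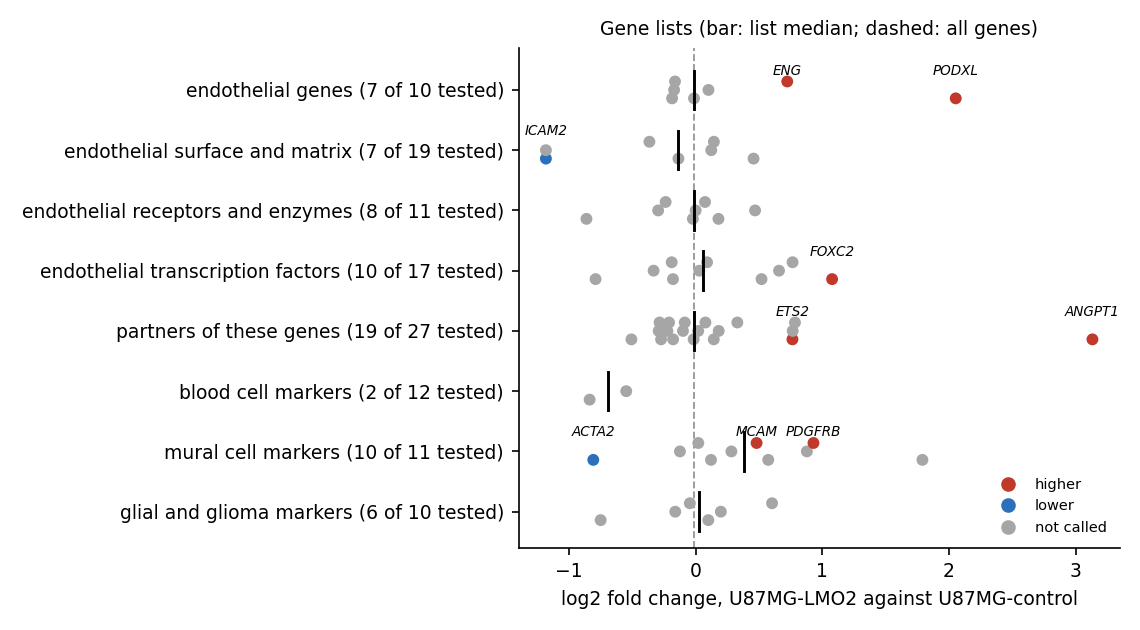
Log2 fold change (U87MG-LMO2 against U87MG-control) of every tested gene in 8 lists; red and blue mark edgeR calls higher and lower, black bars list medians and the dashed line the median of all tested genes. PODXL, at 2.05, and ANGPT1, at 3.13, stand farthest to the right, and the medians of the endothelial lists lie between -0.14 and 0.06.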

How the data were processed

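Total RNA of 6 U87MG libraries had been sequenced by a service company. The submitters' processing notes name Bowtie2, BWA and GRCh38.p12, with no version or role for either tool. For each library the authors deposited expected counts per Entrez gene, which are estimates without normalization and can be fractional, beside a transcript length. The authors also deposited FPKM values, scaled to length and mapped reads. The authors' table of the comparison holds group means, a log2 ratio and a probability. Its ratio and probability were not used. Its means served to check the library tables (within 0.005 FPKM), and 131 of 27259 genes whose U87MG-LMO2 mean did not match were left out of all tests, since the table of U87MG-LMO2 replicate 3 has 3 unreadable lines. None of the 10 endothelial genes was among them, but GFAP was. A gene with no line was taken as 0 counts. RefSeq gave a symbol for 89.63% of the IDs.

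Expected counts were rounded and tested with edgeR 4.0.16 in R 4.3.3 (filterByExpr, TMM, glmQLFit and glmQLFTest, 2-sided), with Benjamini-Hochberg adjustment over 16092 genes and calls at an adjusted p under 0.05. The tests were tested on simulated data. Alternatives were DESeq2 1.42.0, upper-quartile and RLE normalization, no filter, at least 10 counts in every library, limma 3.58.1 on log2(FPKM + 1) and log2(FPKM + 0.1), a replicate block, and leaving out each library. A GC-content correction (lowess, span 0.3) was added after seeing the data. Named were the 10 genes, LMO2, and of each further list the called genes, filled up to 3 names by mean FPKM. The 3 genes most like CDH5 were to be named only if CDH5 passed the filter, which it did not. The 10 genes, lists and tests were chosen with earlier results of these data known, the rise of PODXL included.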

Additional observations from a re-analysis of the deposited data

How the results depend on the processing

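PODXL and ENG kept their direction in all 15 alternatives, and the count of the 10 endothelial genes called lower was 0 in all 15. Leaving out 1 library at a time gave 0 to 2 of the 10 called higher, 102 to 1307 of all genes higher and 42 to 1102 lower, 0 to 1 wider endothelial genes higher and 0 to 4 lower. Without U87MG-LMO2 replicate 3 the numbers of all genes called were the highest, and the cause was not tested. DESeq2 called 681 genes lower, against 443 by edgeR, and the GC correction called 2 wider endothelial genes lower. The sign turned in genes that were not called: with 1 library left out, TEK ranged from -0.30 to 0.045 (above 0 without U87MG-LMO2 replicate 3), KDR from -0.11 (without U87MG-LMO2 replicate 2) to 0.27, and VWF from -1.15 to 0.34 (0.26 without control replicate 1, and 0.34 and 0.32 without U87MG-LMO2 replicates 1 and 2). LMO2 ranged from 7.67 to 10.0 on the log2 scale and kept its call in all 14 alternatives that gave a value. The filter on at least 10 counts in every library left out LMO2, VWF and ANGPT1.

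The replicate numbers did not pair the samples: deviations of same-numbered libraries correlated at -0.117, -0.003 and -0.041. With the replicate block 387 genes were called higher and 189 lower, 1 of the 10 endothelial genes was higher (PODXL, adjusted p = 0.0487, with ENG at 0.0569), and 0 wider endothelial genes were lower. At 3 libraries a group, depth limits CDH5, ERG and TIE1 most, with at most 7 counts per library.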

Other observations

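Mural cells are the pericytes and smooth muscle that wrap endothelium. Of their 10 tested markers edgeR called 2 higher and 1 lower, beside 4.72% and 2.75% of all tested genes. The median log2 fold change of the 10, NOTCH3 included, was 0.38, as a description. PDGFRB, the receptor by which pericytes are recruited, was at 23.2, 15.4 and 17.1 CPM in U87MG-control and 32.1, 28.2 and 45.6 CPM in U87MG-LMO2 (fold 1.91, edgeR adjusted p = 0.0379). MCAM, an adhesion molecule of pericytes and endothelium, was at 75, 73.3 and 71 CPM against 99.2, 97.3 and 109.6 CPM (fold 1.4, edgeR adjusted p = 0.0231). ACTA2, smooth muscle actin, fell, from 87.3, 76.7 and 69.8 CPM to 38.4, 36.1 and 58.9 CPM (fold 0.571, edgeR adjusted p = 0.039). The groups did not overlap for any of the 3 genes, as for 34.1% of all tested genes. Leaving out a library kept the calls of PDGFRB and MCAM in 2 of 6 cases each and that of ACTA2 in 1 of 6, with adjusted p-values up to 0.147, 0.123 and 0.148 over all alternatives.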
